A study of Mus musculus with 8 samples.

Results

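The genes described here are 54 genes of interferon signalling and the interferon response, measured in the Lacun3 line of mouse lung adenocarcinoma. They comprise receptors, kinases, transcription factors, sensors of foreign nucleic acid and genes that interferon is known to induce. They were taken by symbol from a list, by a rule that uses no measured value, but the list was chosen with earlier results of these data known. All 54 were found among the 56884 genes of the count table. Of these, 44 had enough reads to be tested, out of 13707 tested genes in all, and the other 10 are given by their counts.

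The study compared parental Lacun3 cells, labelled STK11 WT, with Lacun3 cells labelled STK11 KO, in which CRISPR had been used to disrupt Stk11. Stk11 encodes LKB1, a kinase that switches on AMPK and related kinases and is a tumour suppressor in the lung. Each genotype had 4 libraries, described by the labels as independent biological replicates, of poly(A)-selected RNA from untreated cells in log-phase growth in serum-containing DMEM. No interferon or other agent was added to either group, and the sources used here do not say whether the knockout line came from 1 clone. With 1 parental and 1 knockout line, a difference between the groups and a difference between these lines cannot be told apart.

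Library totals ran from 18837263 to 25715008 counts, so that 1 count was worth 0.0388 to 0.0515 CPM (counts per 1000000 of the TMM-scaled library size). Stk11 mRNA itself was 66.3 ± 1.79 CPM in the parental libraries and 34.7 ± 0.853 CPM in the knockout libraries (mean ± SD, n = 4 each; given as such below), a log2 fold change of -0.93 ± 0.06 (± SE). Knockout replicate 3, the deepest library, stood apart from the other knockout libraries: every pair of libraries within a group that included it had a chi-square per degree of freedom of 14.2 to 20.7 over genes, and no other pair exceeded 9.73. Its values are therefore set beside those of the other knockout libraries for each listed gene that changed. Epithelial markers (Epcam, Cdh1, Krt8, Krt18, Krt19, Cldn4) summed to 7699 to 8607 CPM in every library. Nearly all of this was Krt8, Krt18 and Krt19, whereas Cldn4 had 37 parental and 5 knockout counts. Krt19 was higher in the knockout libraries (log2 fold change of 0.22), and Epcam and Krt18 were lower (-0.30 and -0.49). The lung lineage markers Nkx2-1, Sftpc and Sftpb summed to at most 0.0927 CPM, with Sftpc at 0 in all 8 libraries. Among the leukocyte markers, Adgre1 was at 0 and Ptprc had 1 count in the parental group and 0 in the knockout group. The summed leukocyte list was 46.8 to 53.2 CPM in the parental and 13.2 to 25.8 CPM in the knockout libraries, nearly all of it Cd68 (48.9 and 19.2 CPM on average). Endothelial markers summed to 1.05 to 1.81 CPM and 3.42 to 4.81 CPM, and fibroblast markers to 3.92 to 5.72 CPM and 1.93 to 3.02 CPM, in the parental and knockout libraries in that order. The endothelial sum was nearly all Cdh5 (1.36 and 4.17 CPM on average), with Kdr at 0 counts. The fibroblast sum was mainly Col1a1 (3.68 and 2.32 CPM on average), with Col1a2 at 0 counts. The part of these shifts in the results below was not tested. In bulk RNA, fewer cells that express a gene and less RNA per cell cannot be told apart.

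Type I interferons bind the receptor chains Ifnar1 and Ifnar2, and interferon gamma binds Ifngr1 and Ifngr2. The kinases Jak1, Jak2 and Tyk2, attached to these receptors, phosphorylate STAT proteins. Stat2 and Irf9 are parts of ISGF3, which binds the interferon-stimulated response element (ISRE), and the gamma-activated site (GAS) is the element of the interferon gamma response. Many of the induced genes also have a low level in unstimulated cells, which depends in part on the same factors. In lung tumours this pathway is studied because it links nucleic acid sensing in the tumour cell to antigen presentation and to the recruitment of immune cells.

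Many of these genes share promoter sequence that the choice of members did not use. RefSeq windows of 300 bases (250 before to 50 after the annotated start, mouse build GRCm38.p6) were found for 44 of the 54 genes. The ISRE core, searched as GAAANNGAAA on both strands with overlapping matches allowed, was present in 21 of the 44 (47.7%), against 1079 of 27025 genes that have a window in the RefSeq table (3.99%). The GAS, searched as TTCNNNGAA, was present in 15 (34.1%), against 9.55% of those genes. The following stretches are shown because their genes carry the contrasts described below; each is written 5′ to 3′ on the gene's own strand, with the matches to the ISRE core in capitals on whichever strand they lie (TTTCNNTTTC on the reverse strand).
Isg15 (chr4:156200865-156200906, minus strand): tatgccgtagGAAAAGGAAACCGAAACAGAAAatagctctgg
Ifit1 (chr19:34640775-34640823, plus strand): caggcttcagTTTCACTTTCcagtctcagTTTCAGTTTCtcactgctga
Gbp2 (chr3:142620594-142620623, plus strand): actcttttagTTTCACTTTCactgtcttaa
Oas3 (chr5:120777715-120777744, minus strand): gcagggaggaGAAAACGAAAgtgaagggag
Irgm1 (chr11:48871425-48871460, minus strand): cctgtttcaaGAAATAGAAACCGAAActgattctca
Igtp (chr11:58199497-58199555, plus strand): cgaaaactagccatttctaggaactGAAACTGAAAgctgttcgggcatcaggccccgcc
Irgm2 (chr11:58214888-58214947, plus strand): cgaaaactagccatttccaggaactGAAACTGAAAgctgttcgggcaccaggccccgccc
Isg15 and Ifit1, which carried several core matches each, did not pass the test for a difference between the genotypes. Gbp2 and Oas3 rose, and Irgm1, Igtp and Irgm2 fell, each with the same core in its window. The annotated spans of Igtp and Irgm2 in the count table overlap on the same strand. Their printed stretches were the same at 57 of 59 bases. Split by the direction of change, 2 of 11 genes that rose, 8 of 17 that fell and 6 of 10 that did not pass had the core among those with a window. These matches describe letters in a window and say nothing of whether a factor was bound.

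The genotypes were then compared gene by gene with edgeR's quasi-likelihood test, with p-values adjusted by the Benjamini-Hochberg method over all 13707 genes and a threshold of 0.05. "Rose" and "fell" below mean that a gene passed, knockout against parental. Of the 44 tested genes 11 rose, 20 fell and 13 did not pass. Over all tested genes 68.0% passed, 34.4% in the higher and 33.6% in the lower direction, so that passing the test was the usual outcome; for these genes the shares were 25.0% and 45.5%. A fitted change of at least 2-fold was seen in 5 genes that rose (11.4%, against 7.02% of all tested genes) and 8 that fell (18.2%, against 9.41%). The 4 parental and 4 knockout libraries did not overlap in 31 of the 44 (70.5%, against 60.6% of all tested genes). The median log2 fold change was -0.20, against 0.01 over all genes, and the median size of the change was 0.45, against 0.37. The genes did not move one way: the members with the largest changes, Trim30a and Isg20, had opposite signs.

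**Figure D1:**
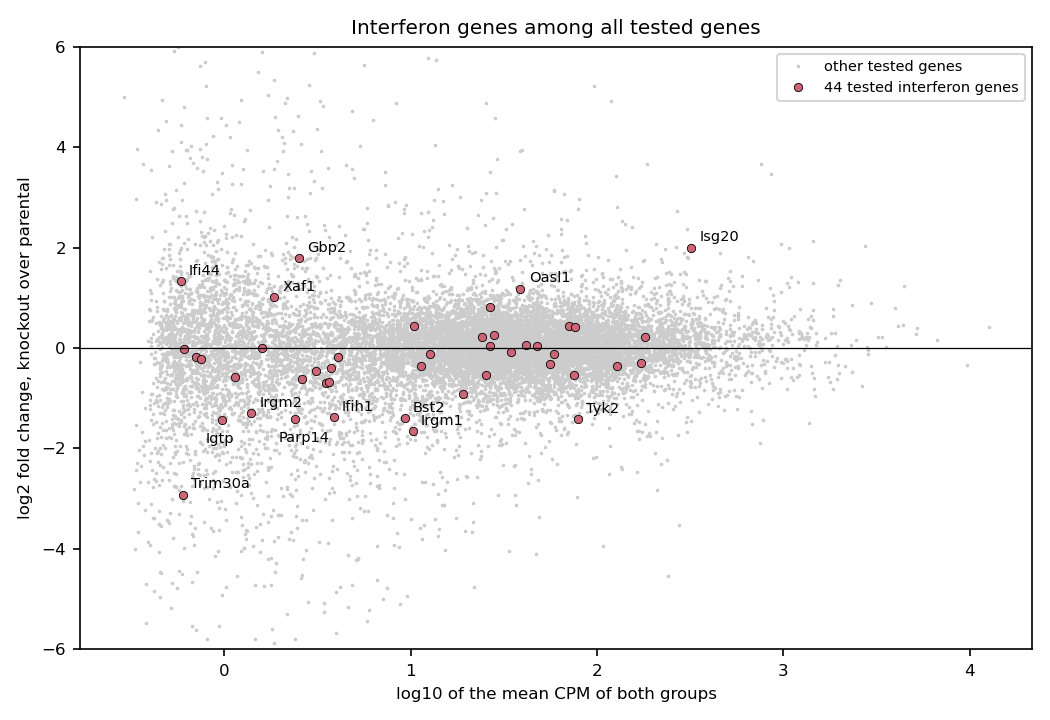
Log2 fold change (knockout over parental) of every tested gene against its mean level (log10 CPM), with the 44 tested interferon genes drawn over all 13707. The interferon genes lie on both sides of 0, with Isg20 and Gbp2 high, Trim30a lowest, and 44 of 44 within the drawn range, outside which 46 other genes lie.

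Among the receptors and kinases, the type I receptor chain Ifnar1 rose, its partner Ifnar2 rose in a call that either of 2 libraries could end when left out, and the chains of the interferon gamma receptor moved apart. Ifnar1 rose by 0.43 ± 0.06 (log2 fold change ± SE; adjusted p = 1.72e-06) and Ifnar2 by 0.22 ± 0.08 (adjusted p = 0.0163). Ifnar2 was 29.8 CPM in replicate 3 and 24.2 to 24.9 CPM in the other knockout libraries, and it did not pass without replicate 3 (0.14, adjusted p = 0.0745), without parental replicate 1 (adjusted p = 0.0552) or with library size alone as the scaling (adjusted p = 0.153). Ifnar1 was 73.3 CPM in replicate 3 and 80.1 to 90.03 CPM in the other knockout libraries. The annotated span of Ifnar2 shares 21729 bases with the predicted gene Gm21970 on the same strand, so its reads may be divided. For interferon gamma, the ligand-binding chain Ifngr1 fell (-0.53 ± 0.06, adjusted p = 1.80e-08) and the signalling chain Ifngr2 rose (0.42 ± 0.08, adjusted p = 3.83e-05). In replicate 3 both were nearer to the parental level than in the other knockout libraries, with 67.1 against 59.2 to 61.8 CPM for Ifngr1 and 77.2 against 84.2 to 104 CPM for Ifngr2. The largest change of this group was in Tyk2, the kinase attached to Ifnar1 (chr9:21015364-21042539, GRCm39, as for all gene positions below). Tyk2 was 108, 113, 125 and 114 CPM in parental libraries 1 to 4 and 41.3, 41.1, 48.0 and 41.8 CPM in knockout libraries 1 to 4. The highest knockout value, in replicate 3, was far below the lowest parental value, and the fit gave a 2.67-fold fall (-1.42 ± 0.06, adjusted p = 8.13e-15). A noncoding gene overlaps Tyk2 on the opposite strand. Jak1, which serves both receptors, rose by 0.22 ± 0.05 (adjusted p = 0.000838) and was 189 CPM in replicate 3 and 180.0 to 206 CPM in the other knockout libraries. Of the 6 genes 4 rose and 2 fell, beside 34.4% and 33.6% of all tested genes.

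Of the 4 transcription factors 1 rose, 1 fell and 2 did not pass. Of all tested genes 34.4% rose and 33.6% fell. Irf9, the DNA-binding part of ISGF3, rose from 8.89 ± 0.838 to 12.1 ± 0.942 CPM (0.44 ± 0.10, adjusted p = 0.000617). Irf1, an activator that interferon gamma induces, fell from 30.1 ± 0.647 to 20.7 ± 1.37 CPM (-0.54 ± 0.07, adjusted p = 5.64e-07). Replicate 3 was the lowest knockout library for both, at 10.9 against 11.9 to 13.2 CPM for Irf9 and 18.8 against 20.9 to 21.9 CPM for Irf1. Irf2, the antagonist of Irf1, had a log2 fold change of 0.04 ± 0.06 (adjusted p = 0.617). Stat2, given by library after its values were seen, was 25.1, 25.5, 27.6 and 23.1 CPM in the parental libraries and 38.3, 28.6, 22.4 and 32.8 CPM in the knockout libraries. Its knockout libraries 1, 2 and 4 lay above all 4 parental libraries and replicate 3 lay below all 4, and Stat2 did not pass (0.26 ± 0.13, adjusted p = 0.0986).

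Of the 5 tested sensors of nucleic acid and their regulators, 3 fell and none rose, beside 33.6% and 34.4% of all tested genes. So few genes do not show a direction for the role. Of 5 further sensing genes in the second list below, 2 rose and 1 fell. Ifih1 encodes MDA5, the cytoplasmic receptor for long double-stranded RNA (chr2:62426142-62476599). It was 6.86, 6.03, 5.50 and 3.92 CPM in the parental libraries and 2.28, 1.88, 1.90 and 2.55 CPM in the knockout libraries. The groups did not overlap, although the parental libraries were widely spread, and the fall was 2.61-fold (-1.38 ± 0.18, adjusted p = 4.26e-07). Dhx58, which encodes the related helicase LGP2, fell by a smaller amount (-0.62 ± 0.17, adjusted p = 0.00310), as did Mavs, the mitochondrial adaptor through which MDA5 signals (-0.31 ± 0.06, adjusted p = 4.72e-05). Dhx58 was 1.67 CPM in replicate 3 and 1.90 to 2.58 CPM in the other knockout libraries, and Mavs in replicate 3 lay among the others (49.1 against 47.7 to 51.2 CPM). Eif2ak2, the double-stranded RNA-activated kinase PKR, had -0.11 ± 0.06, and Adar, which edits double-stranded RNA, had 0.06 ± 0.06; neither passed (adjusted p = 0.129 and 0.383). Eif2ak2 passed with library size alone as the scaling (-0.20, adjusted p = 0.0106) and without parental replicate 3 (-0.16, adjusted p = 0.0436), with adjusted p from 0.0106 to 0.335 over all alternatives.

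In the OAS family, 2 of 3 tested genes rose and none fell, beside 34.4% and 33.6% of all tested genes. Its enzymes make the 2-5A messenger that activates RNase L. Oasl1, which lacks this enzyme activity (chr5:115061299-115075974), was 24.9, 22.9, 24.3 and 22.5 CPM in the parental libraries and 65.8, 54.4, 38.4 and 57.3 CPM in the knockout libraries. Every knockout library was above every parental one, with replicate 3 the lowest of the 4, and the rise was 2.27-fold (1.18 ± 0.14, adjusted p = 1.37e-05). Oas3 rose from 19.4 ± 0.309 to 34.2 ± 4.13 CPM (0.81 ± 0.08, adjusted p = 1.01e-08) and was 28.9 CPM in replicate 3 and 34.3 to 39.0 CPM in the other knockout libraries. Oasl2, the neighbour of Oasl1, was 1.14, 0.881, 2.16 and 1.24 CPM in the parental and 0.842, 1.22, 0.233 and 1.44 CPM in the knockout libraries. Replicate 3 was its lowest library and the groups overlapped, and Oasl2 did not pass (-0.59 ± 0.38, adjusted p = 0.185). Its log2 fold change was -0.21 without replicate 3, -0.26 without parental replicate 3 and -0.88 without knockout replicate 4.

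The antiviral effectors included the largest rise of the 44 genes. Isg20, an exonuclease that degrades single-stranded RNA (chr7:78563172-78570144), was 131, 119, 140.3 and 123 CPM in the parental libraries and 566, 529, 433 and 527 CPM in the knockout libraries. The groups were far apart, with replicate 3 the lowest knockout library, and the rise was 4.01-fold (2.00 ± 0.07, adjusted p = 4.88e-16). Bst2 (tetherin), which holds budding virions at the cell surface (chr8:71986899-71990100), went the other way, with 12.8, 14.2, 13.3 and 13.4 CPM in the parental and 5.15, 4.66, 4.04 and 6.72 CPM in the knockout libraries. Its groups did not overlap either, and it fell 2.63-fold (-1.39 ± 0.12, adjusted p = 1.08e-09). The membrane proteins Ifitm2 and Ifitm3, which hinder viral fusion, also fell, Ifitm2 by a little (-0.37 ± 0.06, adjusted p = 1.08e-05) and Ifitm3 by more (-0.69 ± 0.18, adjusted p = 0.00166). Replicate 3 was the lowest knockout library for both (98.2 against 111 to 121 CPM for Ifitm2, 1.86 against 2.28 to 3.38 CPM for Ifitm3). Ifit1 (-0.17 ± 0.38), Ifit2 (-0.22 ± 0.30), Mx2 (-0.03 ± 0.34) and Samd9l (-0.08 ± 0.08) did not pass. The first 3 of these had low levels, with group means of 0.607 to 0.811 CPM, and wide standard errors.

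**Figure D2:**
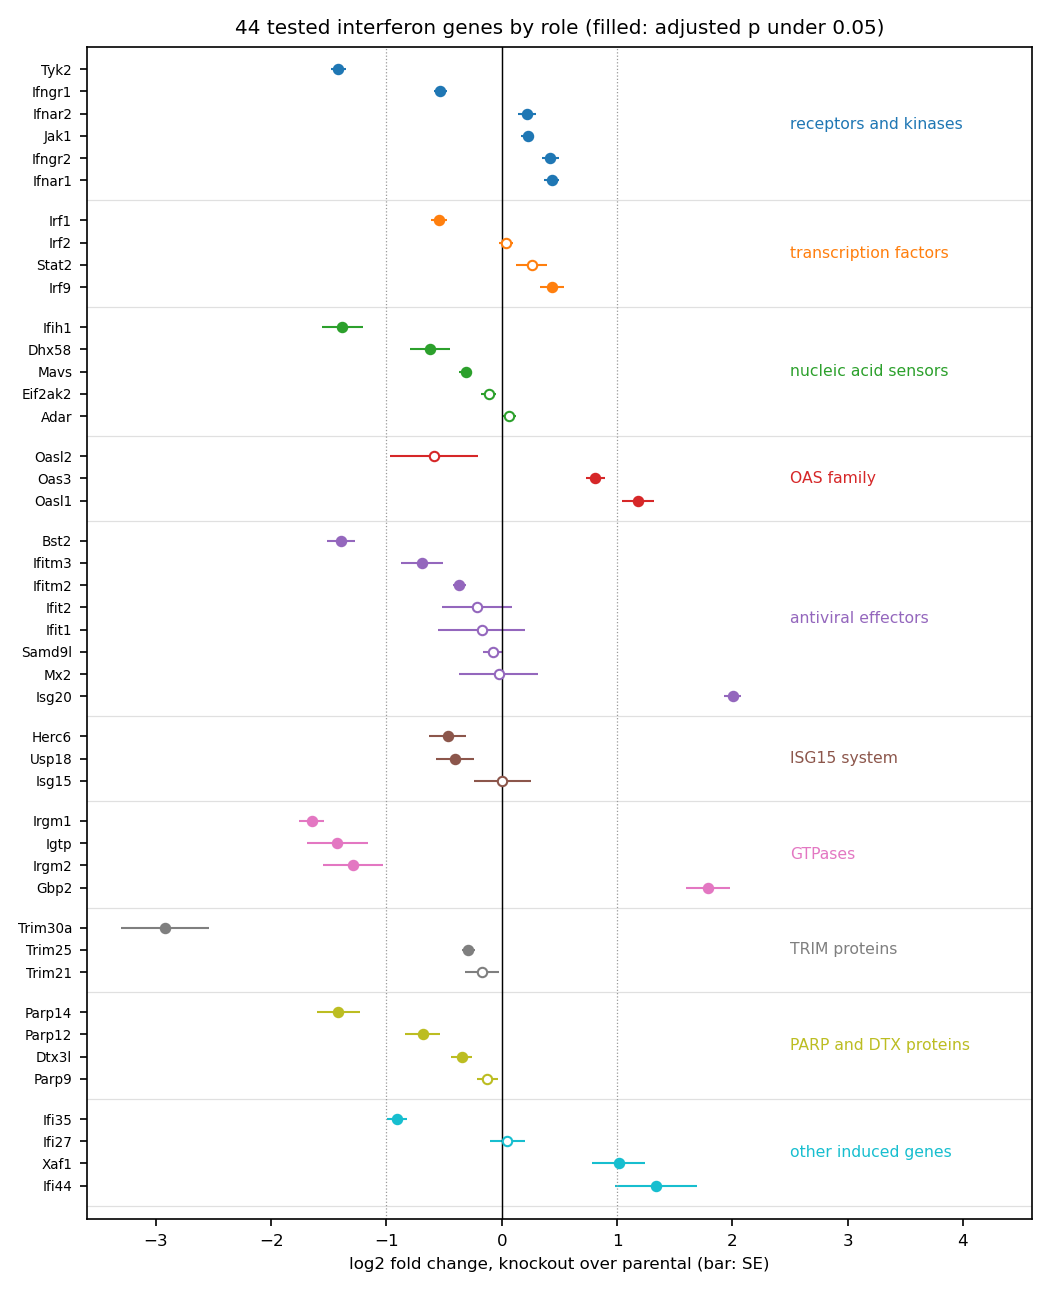
Fitted log2 fold change, knockout over parental, with its standard error for the 44 tested genes, grouped by role; filled points passed the test and open points did not. Isg20 at 2.00 and Gbp2 at 1.79 lie farthest to the right, and Trim30a at -2.92 farthest to the left. The sensors with their regulators, the ISG15 system, the TRIM proteins and the PARP and DTX proteins hold no gene that rose. These groups have only 3 to 5 tested genes each, and 34.4% of all tested genes rose. Groups this small do not show a pattern by role.

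Isg15, the ubiquitin-like protein that gives the ISG15 system its name, was 1.52, 1.39, 1.56 and 1.80 CPM in the parental libraries and 1.83, 2.21, 0.855 and 1.53 CPM in the knockout libraries. Replicate 3 was the lowest library of all 8 and replicate 2 the highest, and the fitted difference was 0.01 ± 0.25 (adjusted p = 0.984). Usp18, the protease that removes Isg15 from proteins and also restrains the type I receptor, fell (-0.40 ± 0.16, adjusted p = 0.0322) and was 2.18 CPM in replicate 3 and 3.52 to 3.67 CPM in the other knockout libraries. It did not pass without replicate 3 (-0.23, adjusted p = 0.165), without parental replicates 1, 3 or 4, or with DESeq2 (adjusted p = 0.0789). Herc6, the ligase that attaches Isg15 in mouse, fell as well (-0.47 ± 0.16, adjusted p = 0.0130), with replicate 3 the highest knockout library (3.07 against 2.27 to 2.58 CPM).

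Of the 4 interferon-induced GTPases tested, Gbp2 rose and the other 3 fell, beside 34.4% and 33.6% of all tested genes. Gbp2, a guanylate-binding protein that gathers on vacuoles of intracellular pathogens (chr3:142326363-142343769), was 1.19, 1.21, 0.871 and 1.24 CPM in the parental libraries and 3.91, 4.48, 3.26 and 4.03 CPM in the knockout libraries. Every knockout library exceeded every parental one, and Gbp2 rose 3.46-fold (1.79 ± 0.19, adjusted p = 2.43e-08). The 3 immunity-related GTPases, which act on the same vacuoles, fell. Irgm1 (chr11:48752795-48762510) was 15.8, 16.7, 14.5 and 15.4 CPM in the parental libraries and 4.66, 4.48, 4.86 and 5.84 CPM in the knockout libraries, a 3.14-fold fall with no overlap (-1.65 ± 0.11, adjusted p = 4.70e-12). Igtp (chr11:58090382-58098417) was 1.29, 1.39, 1.51 and 1.55 CPM in the parental and 0.347, 0.471, 0.621 and 0.649 CPM in the knockout libraries (-1.43 ± 0.27, adjusted p = 5.99e-05). Irgm2 (chr11:58090444-58113608) was 2.57, 1.81, 1.56 and 2.06 CPM in the parental and 0.446, 0.942, 1.09 and 0.695 CPM in the knockout libraries (-1.29 ± 0.26, adjusted p = 0.000134). In both of these the groups did not overlap. Their annotated spans share 7974 bases on the same strand, so reads may be divided between them, and their separate values are uncertain.

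Trim30a, a TRIM protein that dampens NF-kB signalling in mouse cells (chr7:104058232-104114400), had the largest fall of the 44 genes. It was 0.857, 1.02, 1.05 and 1.34 CPM in the parental libraries and 0.0991, 0.141, 0.194 and 0.0927 CPM in the knockout libraries. The groups did not overlap, and the fitted fall was 7.58-fold (-2.92 ± 0.38, adjusted p = 5.08e-07). The counts behind it were small, 89 in all parental and 12 in all knockout libraries, and the gene belongs to a family of close copies. Trim25, the ubiquitin ligase that activates RIG-I, fell slightly (-0.29 ± 0.05, adjusted p = 5.63e-05) and was 142 CPM in replicate 3 and 159 to 162 CPM in the other knockout libraries. Trim21, the cytoplasmic antibody receptor, did not pass (-0.17 ± 0.15, adjusted p = 0.311).

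No gene of the PARP and DTX group rose and 3 of 4 fell, beside 34.4% and 33.6% of all tested genes. Parp14, a mono-ADP-ribosyltransferase (chr16:35653244-35691914), was 3.24, 3.11, 3.49 and 4.12 CPM in the parental libraries and 1.14, 1.41, 1.17 and 1.48 CPM in the knockout libraries. All knockout libraries were below all parental ones, and it fell 2.67-fold (-1.42 ± 0.19, adjusted p = 5.18e-07). Parp12, of the same enzyme class, fell (-0.69 ± 0.15, adjusted p = 0.000364), as did Dtx3l, a ubiquitin ligase and the partner of Parp9 (-0.35 ± 0.09, adjusted p = 0.00214). Replicate 3 was the highest knockout library for both, by a small margin (3.03 against 2.36 to 2.97 CPM for Parp12, 10.9 against 9.02 to 10.6 CPM for Dtx3l). Parp9 did not pass (-0.13 ± 0.09, adjusted p = 0.232). Dtx3l and Parp9 overlap by 682 bases on opposite strands.

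Among the remaining induced genes, Xaf1, a pro-apoptotic antagonist of XIAP (chr11:72192455-72204559), was 1.00, 1.02, 1.42 and 1.44 CPM in the parental libraries and 2.87, 2.36, 1.71 and 3.06 CPM in the knockout libraries. The groups did not overlap, although replicate 3 came close to the highest parental library, and the rise was 2.02-fold (1.01 ± 0.23, adjusted p = 0.000467). Ifi44 rose 2.53-fold from a level under 1 CPM, with 27 counts in all parental and 73 in all knockout libraries (1.34 ± 0.35, adjusted p = 0.00199). It was 0.544 CPM in replicate 3 and 0.834 to 1.04 CPM in the other knockout libraries. Ifi35, a leucine-zipper protein that binds Nmi, fell from 24.8 ± 1.36 to 13.2 ± 1.76 CPM (-0.91 ± 0.09, adjusted p = 6.73e-09) and was 12.1 CPM in replicate 3 and 11.5 to 15.4 CPM in the other knockout libraries. Ifi27, given by library after its values were seen, did not pass (0.05 ± 0.15, adjusted p = 0.795), with knockout values of 30.4, 29.9, 17.8 and 30.5 CPM and parental values of 23.8, 25.3, 26.6 and 28.8 CPM.

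**Figure D3:**
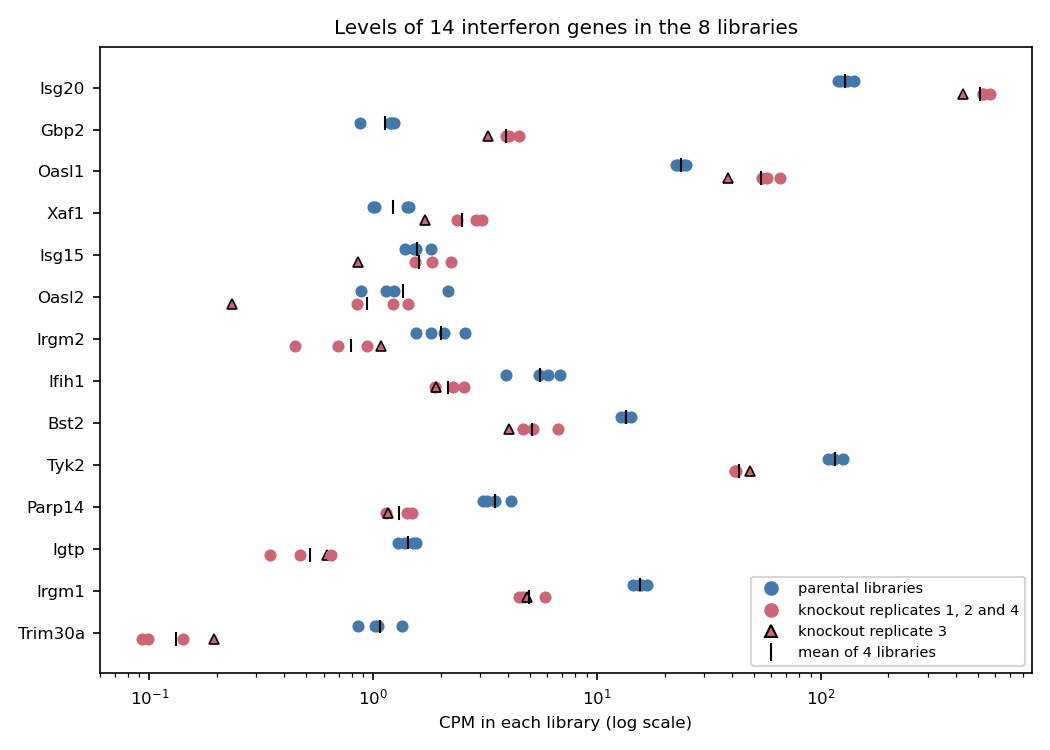
Level in CPM (log axis) in each of the 8 libraries for the 12 genes given library by library for their change and the 2 given for knockout replicate 3, with that library as a triangle. The parental and knockout libraries do not overlap in those 12, whereas Oasl2 and Isg15 overlap and have replicate 3 as their lowest library.

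The 10 untested genes had between 6 and 84 counts over all 8 libraries. They include Zbp1, a sensor of Z-form nucleic acid, with 2 parental and 4 knockout counts, and Mx1, an antiviral GTPase, with 7 and 8. Cmpk2, the neighbour of Rsad2, had 6 parental counts and 0 knockout counts; a knockout count of 0 allows up to 0.0338 CPM (3 counts over the group, counting error only), beside a parental mean of 0.0704 CPM. Ifit3 had 3 and 8 counts, Gbp3 16 and 35, Gbp7 6 and 4, and Rtp4 17 and 20. Oas1a had 0, 3, 1 and 1 counts in the parental and 10, 23, 4 and 29 in the knockout libraries, so that replicate 3 was close to the parental libraries. Oas2 had 5, 4, 8 and 3 parental and 27, 15, 10 and 12 knockout counts, with replicate 3 again the lowest knockout library. Rsad2, which makes a chain-terminating nucleotide, had 13, 4, 11 and 7 parental and 3, 10, 1 and 0 knockout counts, and its groups overlapped. With no filter on low counts these 3 passed edgeR's test (log2 fold changes of 3.52, 1.58 and -1.37, adjusted p = 4.89e-09, 0.000715 and 0.0258). That fit also changed the adjusted p of well-counted genes at nearly the same fold change. For Stat2 it went from 0.0986 to 0.00292, with a log2 fold change of 0.26 in both fits. Its p-values for these 3 genes are therefore not to be set beside those of the main fit. Over all alternatives that gave a value, the adjusted p ran from 4.89e-09 to 0.0013 for Oas1a, from 0.000687 to 0.014 for Oas2 and from 0.0258 to 0.15 for Rsad2. In fits that left out 1 library, Oas1a and Oas2 passed the filter on low counts only through their knockout libraries, where they were high. Their ranges therefore do not show how firm these calls are.

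Levels between genes were compared per kb of annotated exon. Ifitm2 had the highest level of the 54 genes in the parental cells, at 220 CPM per kb, followed by Isg20 at 68.9. In the knockout cells the order of these 2 was turned, with Isg20 at 276 and Ifitm2 at 171 CPM per kb. Isg15, a gene often used to read the state of the pathway, was at 2.08 and 2.13 CPM per kb. The reads of Ifitm2 may include those of a predicted gene, Gm45717, that overlaps it on the same strand.

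Several of the genes lie together on chromosomes, within 100 kb of the next one. The 54 genes formed 10 such groups holding 24 of them. Ifnar2, Ifnar1 and Ifngr2 are neighbours on chromosome 16 and rose, Ifnar2 with the limits given above. Il10rb, which lies between Ifnar2 and Ifnar1 and encodes a chain of the interferon lambda receptor, rose as well (1.38 ± 0.26, adjusted p = 7.84e-05; chosen after its values were seen). Parp14, Dtx3l and Parp9, also on chromosome 16, had log2 fold changes of -1.42, -0.35 and -0.13. The neighbours Oasl1 and Oasl2 had log2 fold changes of 1.18 and -0.59, a difference between genes that was not tested.

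Genes of the same pathway outside the 54 were read from a second list of 79 genes found in the table, also chosen with earlier results of these data known. Of 49 that could be tested 18 rose, 18 fell and 13 did not pass, beside 34.4% and 33.6% of all genes. None of the 10 interferon genes on this list was tested; Ifnb1 had 0 parental and 2 knockout counts, Ifng had 0 and 2, and Ifne had 2 and 5. The 4 genes that rose with the smallest adjusted p were Socs3, an inhibitor of JAK signalling, from 48.6 ± 4.04 to 125 ± 16.2 CPM, Jak2 from 64.5 ± 2.15 to 108 ± 7.29 CPM, and the HIN-200 family genes Ifi204, from 24.8 ± 1.32 to 43.4 ± 3.15 CPM, and Ifi203, from 106 ± 7.12 to 164 ± 10.8 CPM. The 4 that fell were Lgals3bp, a secreted glycoprotein, from 499 ± 15.2 to 205 ± 7.09 CPM, Ifnlr1, the specific chain of the interferon lambda receptor, from 13.3 ± 0.790 to 3.42 ± 0.587 CPM, Gbp4 from 5.05 ± 0.218 to 0.466 ± 0.229 CPM, and Gbp9 from 5.17 ± 0.632 to 0.865 ± 0.227 CPM. Irf7, chosen after its values were seen, did not pass (0.15 ± 0.18, adjusted p = 0.471). Among the other guanylate-binding proteins, Gbp2b rose by 1.63 ± 0.20 and lies on chromosome 3 with Gbp2, whereas Gbp4, Gbp8 and Gbp9 on chromosome 5 fell, with log2 fold changes of -3.44, -2.28 and -2.59. Gbp2b and Gbp8 were also chosen after their values were seen; the annotated spans of Gbp4, Gbp8 and Gbp9 overlap, so their reads may not be separable.

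Knockout replicate 3 had lower levels of many of these genes than the other knockout libraries. Set against the parental mean, the median log2 difference of the 44 genes was -0.25, -0.16, -0.37 and -0.06 in knockout libraries 1 to 4, whereas the median over all tested genes was between 0.00 and 0.02 in each. Replicate 3 was the lowest of the 4 knockout libraries for 25 of the 44 genes (56.8%) and for 31.0% of all tested genes. Without the receptors, kinases and transcription factors, the medians of the remaining 34 genes were -0.26, -0.21, -0.55 and -0.18, and replicate 3 was lowest for 20 (58.8%). It lay more than 1.5 times below the median of the other knockout libraries for 9 genes (20.5%, against 3.72% of all tested genes): Oasl2, Ifit1, Isg15, Mx2, Ifitm3, Ifi44, Ifi27, Xaf1 and Usp18. Trim30a and Irgm2 lay more than 1.5 times above it (4.55%, against 3.47%). Apart from Ifi27, the genes named for these ratios had low knockout means, from 0.132 CPM for Trim30a to 3.25 CPM for Usp18. The shares over all tested genes cover every level, and the part of counting error in the ratios was not tested.

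Refitted without replicate 3, 13 genes rose and 19 fell, and 1 of the 13 was Oas2 (log2 fold change of 1.82, adjusted p = 0.000687). Oas2 passed the filter on low counts in this fit only through its knockout libraries, where it was high, so its call adds no support to the count. Stat2 then passed (log2 fold change of 0.39, adjusted p = 0.000324; 0.000324 to 0.252 over all alternatives), as did Ifi27 (0.22, adjusted p = 0.00961; 0.00961 to 0.995). Usp18 (-0.23, adjusted p = 0.165; 0.0111 to 0.165) and Ifnar2 (0.14, adjusted p = 0.0745; 0.0127 to 0.153) no longer passed. Isg15 had a log2 fold change of 0.25 without it and still did not pass (adjusted p = 0.328; 0.328 to 0.997). Each of the 12 genes given library by library for its change passed with and without replicate 3.

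**Figure D4:**
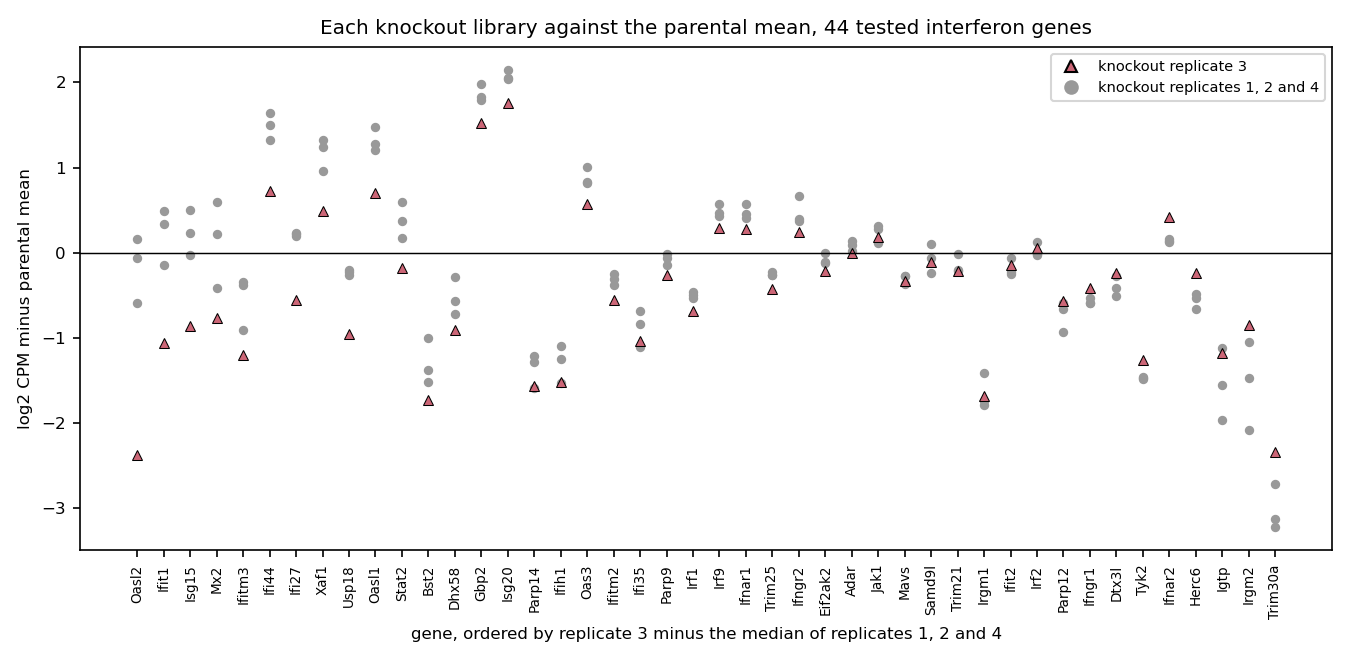
Log2 CPM of each knockout library minus the parental mean for the 44 tested genes, ordered from left to right by replicate 3 (triangle) minus the median of the other knockout libraries (circles). Replicate 3 is lowest of the 4 for 25 genes, most of them on the left, where Oasl2 stands farthest from the others, and highest for 8 genes, among them Trim30a and Irgm2 on the right.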

How the data were processed

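RNA was extracted from 4 parental and 4 knockout samples and libraries were made with a stranded poly(A) kit and sequenced as paired reads, per the labels' protocols. Tools listed in the submitters' processing notes are featureCounts 1.6.0, limma, edgeR, STAR 2.7.9a and FastQC 0.11.8, with GRCm39 as the build. The sources used here do not give the strand setting or the treatment of reads with several matches, and 25 of the 54 genes overlap another annotated gene, 18 of them one on the opposite strand. The authors deposited raw counts per gene and, in a second table, log2 CPM values in voom's form; the second was used only for an alternative.

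The raw counts were tested with edgeR 4.0.16 (glmQLFit with robust estimation, glmQLFTest, TMM, default filterByExpr) with genotype as the only term. CPM are counts over TMM-scaled library sizes, and the SE is the absolute log2 fold change over the square root of F. Alternatives used DESeq2 1.42.0, limma 3.58.1, other scalings and filters, a replicate block and leaving out each library. The fit was tested on simulated data. Values are given per library for genes that passed with at least a 2-fold change and 1 CPM in the higher group, or whose value in knockout replicate 3 differed by over 2-fold from the median of the other knockout libraries at 1 CPM or more, and, chosen after their values were seen, for Stat2 and Ifi27 and for the counts of Oas1a, Oas2 and Rsad2; of the second list, the 4 genes with the smallest adjusted p in each direction were named. The members and lists were chosen with earlier results of these data known. Promoter sequences are from RefSeq (GRCm38.p6), and exon lengths from GENCODE M21. The limit that a count of 0 allows covers counting error only. Some items of the lists are not reported here.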

Additional observations from a re-analysis of the deposited data

Results flagged for a closer look

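For each tested gene and genotype the highest and lowest of the 4 libraries were compared with the rest by Dixon's criterion (95% critical value for 4 samples). Of 88 such groups 11 had a library that stood apart, and chance alone gives about 1 in 20. The share over all tested genes is not given here, so the count cannot be read as particular to these genes.

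Knockout replicate 3 was the library in 5 of the 11. It was the highest knockout library for Ifnar2 (29.8 CPM, the others 24.2 to 24.9) and Tyk2 (48.0 CPM, the others 41.1 to 41.8), and the lowest for Usp18 (2.18 CPM, the others 3.52 to 3.67), Trim25 (142 CPM, the others 159 to 162) and Ifi27 (17.8 CPM, the others 29.9 to 30.5). Parental replicate 4 was the library in 4: it was lowest for Ifngr2 (58.6 CPM, the others 67.4 to 67.7) and highest for Ifit2 (1.29 CPM, the others 0.619 to 0.688), Ifitm2 (149 CPM, the others 142 to 143) and Ifi44 (0.464 CPM, the others 0.275 to 0.286). The remaining 2 were parental replicate 3, lowest for Gbp2 (0.871 CPM, the others 1.19 to 1.24), and knockout replicate 4, highest for Trim21 (4.22 CPM, the others 3.67 to 3.72).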

How the results depend on the processing

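Of the 31 genes that passed, 29 passed in the same direction under every alternative that gave a value, apart from the test against a 2-fold change; the exceptions were Usp18 and Ifnar2. Usp18 did not pass with DESeq2 (adjusted p = 0.0789), without parental replicates 1, 3 or 4 (0.0538, 0.0597 and 0.0728) or without knockout replicate 3 (0.165). Ifnar2 did not pass with library size alone as the scaling (0.153), without parental replicate 1 (0.0552) or without knockout replicate 3 (0.0745). Leaving out each library in turn gave 11 to 13 genes that rose and 19 to 20 that fell. The counts that rose include Oas1a or Oas2, untested in the main fit, wherever these passed. They passed the filter on low counts in such fits only through their high knockout libraries, so their calls add no support to the range. Over all tested genes the same fits gave 4522 to 4863 that rose and 4397 to 4793 that fell. A test against a 2-fold change (edgeR's glmTreat) called 2 of the 44 genes higher (Gbp2 and Isg20) and 5 lower (Trim30a, Bst2, Tyk2, Irgm1 and Parp14). It called 555 higher and 796 lower of all 13707 tested genes, and 3 and 8 of the 49 tested in the second list. Among genes that had not passed, Stat2 passed with no filter on low counts and without knockout replicate 3. Ifi27 passed without knockout replicate 3, and Eif2ak2 with library size alone and without parental replicate 3. Without the filter Stat2 kept the log2 fold change of the main fit, 0.26, and its adjusted p was smaller. Values that changed sign belonged to genes that had not passed. Isg15 was at -0.0011 with DESeq2 size factors, -0.0066 with upper-quartile scaling, -0.076 with library size alone, -0.074 with limma-voom and -0.035 with the deposited voom values. With library size alone, which moved the median of all genes by -0.08, Adar was at -0.022, Irf2 at -0.048 and Ifi27 at -0.038. When each library was left out in turn, log2 fold changes ran from -0.19 to 0.25 for Isg15, -0.38 to 0.23 for Ifit1, -0.32 to 0.074 for Ifit2, -0.30 to 0.20 for Mx2, -0.88 to -0.21 for Oasl2 and -0.0093 to 0.22 for Ifi27.

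The replicate numbers of the labels are shared between the genotypes. With the number as a replicate block, 11 genes rose and 20 fell, as without it; correlations of same-numbered libraries were 0.03, 0.01, -0.083 and -0.0038, and nothing in the labels pairs them. Low counts in at least 1 group limit Ifit1, Ifit2, Mx2, Ifi44, Trim30a, Igtp, Irgm2, Oasl2 and the 10 untested genes. They also limit Il10rb, Gbp4, Gbp8 and Gbp9 of the second list.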
